A study of Rattus norvegicus with 12 samples.

Results

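The oligodendrocyte lineage was followed through 32 genes chosen by name, from progenitor markers to structural proteins of myelin. Rows of the expression tables with these names were taken, and 31 of the 32 were found among 28111 different gene names. The remaining gene, Lhfpl3, had no row under that name. The rule goes by name and uses no measured value, but the list itself was drawn up with earlier results of these data known.

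The cultures were primary cortical neuroglial cells of Wistar rat pups, kept for 10 days in vitro (DIV) and sampled 4 h after treatment, with 3 libraries in each of 4 groups. The intact control (IC) received no addition. The EV group received extracellular vesicles at 10 µg/mL, the second group proteins of 3–100 kDa at 15 µg/mL and the third the total secretome at 45 µg/mL. Per the study's methods, the vesicles came from glial progenitor cells made from human induced pluripotent stem cells. The pups were at postnatal day 0 by the labels and slightly older by the study's methods. Doses differ between the 3 additions, so each comparison between additions is also a comparison between doses. The study's methods speak of repeated experiments with unrelated cells, and its supplement names a day covariate for the IC and EV libraries. Which library belongs to which culture or day is not given in the sources used here, so no fit with day was made, and p-values measure only the spread between these libraries.

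Oligodendrocytes make the myelin sheath of axons in the central nervous system. They arise from progenitor cells that carry the PDGF receptor alpha and the proteoglycan NG2, pass through a committed precursor stage marked by the receptor GPR17, and then switch on the genes of myelin proteins and of myelin lipid synthesis. The basic helix-loop-helix factors OLIG1 and OLIG2 and the SOX factor SOX10 set the identity of the lineage, NKX2-2 accompanies the start of differentiation, and MYRF drives the myelin genes. In rodent cortex most myelin forms after birth.

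Promoter sequence is shown for Gpr17, Nkx2-2 and Olig2, as 3 of the genes on which the comparisons below turn. The RefSeq promoter table for the GRCr8 assembly held 24 of the 32 genes, not including Olig1 and Sox10. Each sequence is the 250 bases before the transcription start, written 5′ to 3′ on the gene's strand, at chr18:23857382-23857631 (minus strand) for Gpr17, chr3:155075623-155075872 (minus strand) for Nkx2-2 and chr11:43961335-43961584 (plus strand) for Olig2. Capitals mark a SOX core, searched as ACAANG on both strands. These letters were chosen after the sequences had been seen.
Gpr17: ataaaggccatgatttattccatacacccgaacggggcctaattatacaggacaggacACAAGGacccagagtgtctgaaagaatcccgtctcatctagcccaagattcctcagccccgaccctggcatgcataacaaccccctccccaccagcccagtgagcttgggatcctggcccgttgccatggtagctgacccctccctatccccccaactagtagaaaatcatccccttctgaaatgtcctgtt
Nkx2-2: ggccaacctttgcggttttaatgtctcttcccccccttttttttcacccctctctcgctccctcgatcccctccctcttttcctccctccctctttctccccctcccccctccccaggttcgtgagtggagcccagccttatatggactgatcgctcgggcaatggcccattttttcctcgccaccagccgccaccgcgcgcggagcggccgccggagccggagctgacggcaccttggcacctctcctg
Olig2: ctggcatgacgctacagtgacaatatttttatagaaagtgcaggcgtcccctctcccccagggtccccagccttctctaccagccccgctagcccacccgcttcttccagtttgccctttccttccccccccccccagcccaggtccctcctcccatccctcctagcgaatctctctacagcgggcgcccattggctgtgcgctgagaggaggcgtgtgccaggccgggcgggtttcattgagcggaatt
The SOX core letters occurred once in the Gpr17 window, starting 192 bases before the transcription start, and 0 times in the windows of Nkx2-2 and Olig2. They occurred in 36.9% of all 33469 promoter windows of this length and in 10 of the 24 lineage genes. The E-box letters CANNTG, the form bound by helix-loop-helix factors, occurred 0 times in these 3 windows, against 65.5% of all windows and 15 of the 24 lineage genes. These are matches of letters and not tested sites.

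Values are TPM, a transcript's share of its library scaled to a fixed total, which correct for transcript length, so levels can be set side by side between genes. They carry no read depth, and the depth behind each value is unknown. A value of 0 is given as listed and was not read as absence of expression. Tests used limma on log2(TPM + 1) after rescaling, with Benjamini-Hochberg adjustment over all genes tested and a false discovery rate (FDR) of 0.05. Fold changes below are on that log2 scale, which understates the change of genes at low TPM.

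The cultures expressed most progenitor genes and the precursor genes Gpr17 and Bcas1 well, and most genes of mature myelin barely. Of the other listed precursor genes, Enpp6 reached at most 1.02 TPM and Bmp4 reached 1 TPM in 7 libraries. At 1 TPM or more in all 12 libraries were 19 of the 31 genes, and 7 were under 1 TPM in at least 10 libraries. The summed level of 6 defining lineage genes (Pdgfra, Cspg4, Olig1, Olig2, Sox10 and Nkx2-2) ran from 108 to 239 TPM over the 12 libraries. The sum of 6 defining genes of myelinating cells (Mbp, Mog, Mag, Mobp, Opalin and Cldn11) ran from 13.9 to 45.1 TPM, and without Mbp from 0.272 to 7.73 TPM. The lineage sum was 4.79 to 15.0 times this myelin sum in the same library, and 1.43 to 2.75 times the sum of all 10 myelin protein genes, which includes the early genes Cnp and Tspan2. Of the markers of myelinating cells other than Mbp, Cldn11 and Mag reached 4.83 and 2.40 TPM in total secretome library 1, Mog at most 1.08 TPM, and Mobp and Opalin were at or near 0 in every library.

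**Figure D1:**
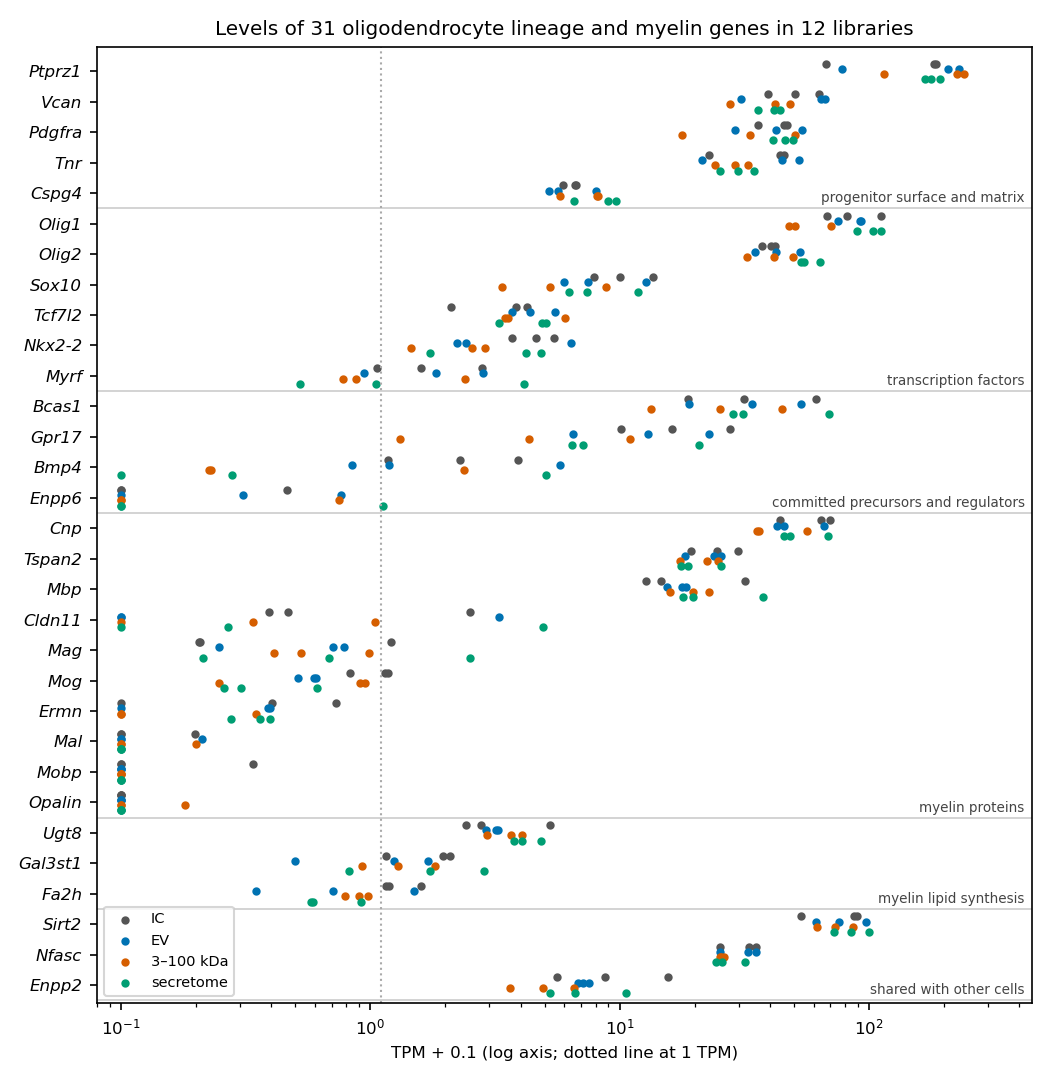
Levels of the 31 genes in each of the 12 libraries, as TPM + 0.1 on a log axis, grouped by role and coloured by group, with a dotted line at 1 TPM. Progenitor genes and Olig1 sit to the right, Ptprz1 reaches 239 TPM, and Mobp, Mal and Opalin sit at or near 0 in every group.

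Among progenitor surface and matrix genes, Pdgfra encodes the receptor for the PDGF that drives progenitor division. Pdgfra measured 46.9, 35.8 and 45.4 TPM in IC libraries 1 to 3, 28.8, 53.8 and 42.4 after EV, 33.3, 50.3 and 17.6 after the 3–100 kDa proteins and 49.3, 46 and 40.9 after the total secretome. Groups overlapped, and the lowest and highest libraries, at 17.6 and 53.8 TPM, were both from treated cultures. Cspg4, which encodes NG2, measured 6.53, 5.82 and 6.56 TPM in IC libraries 1 to 3, 5.56, 5.1 and 7.94 after EV, 8.03, 8.05 and 5.65 after the 3–100 kDa proteins and 8.88, 6.44 and 9.52 after the total secretome. Its whole range was 1.87-fold.

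Ptprz1 encodes a receptor phosphatase of progenitors that astrocytes use as well. Its levels were 182, 67.1 and 186 TPM in IC libraries 1 to 3, 77.5, 207 and 229 after EV, 115, 239 and 226 after the 3–100 kDa proteins and 167, 177 and 193 after the total secretome and its mean was the highest of the lineage genes. IC library 2 and EV library 1, at 67.1 and 77.5 TPM, stood below the other 10 libraries. Vcan and Tnr encode versican and tenascin-R, matrix molecules made by progenitors and by other cells. Vcan measured 50.4, 39.2 and 62.7 TPM in IC libraries 1 to 3, 30.4, 66.5 and 64.2 after EV, 27.6, 48 and 41.9 after the 3–100 kDa proteins and 35.8, 43.8 and 41.6 after the total secretome. Tnr measured 45.4, 22.6 and 43.8 TPM in IC libraries 1 to 3, 21.3, 52.4 and 44.8 after EV, 23.9, 32.7 and 28.9 after the 3–100 kDa proteins and 34.3, 25.2 and 29.6 after the total secretome. IC library 2 and EV library 1 were the lowest of their groups for Ptprz1, Vcan and Tnr alike. Across all genes these libraries also deviated alike from their group means, with a correlation of 0.53.

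Of the transcription factors, Olig1 was the most abundant. Olig1 measured 81.3, 112 and 67.9 TPM in IC libraries 1 to 3, 92.8, 91.5 and 74.8 after EV, 70.0, 50.5 and 47.4 after the 3–100 kDa proteins and 89.1, 112 and 104 after the total secretome. The 3–100 kDa libraries lay below all EV and total secretome libraries, and their highest value, 70.0 TPM, lay above the lowest IC value of 67.9 TPM. Olig2, its paralog, measured 41.7, 40.3 and 37.1 TPM in IC libraries 1 to 3, 34.8, 52.8 and 42.1 after EV, 41.4, 49.5 and 32.3 after the 3–100 kDa proteins and 53, 63.5 and 54.9 after the total secretome. All 3 total secretome libraries were above every library of the other 3 groups, which overlapped with one another. Expressed per library, the ratio of Olig1 to Olig2 was 1.95, 2.78 and 1.83 in IC, 2.67, 1.73 and 1.78 after EV, 1.69, 1.02 and 1.47 after the 3–100 kDa proteins and 1.68, 1.76 and 1.90 after the total secretome. Its means were 2.19 ± 0.518, 2.06 ± 0.527, 1.39 ± 0.341 and 1.78 ± 0.111 (SD, n = 3), a ratio chosen after the values had been seen and not tested.

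Sox10, which acts throughout the lineage, measured 13.5, 9.95 and 7.81 TPM in IC libraries 1 to 3, 12.6, 5.88 and 7.39 after EV, 8.74, 5.13 and 3.28 after the 3–100 kDa proteins and 11.7, 6.15 and 7.26 after the total secretome. Library 1 was the highest of its group in all 4 groups. Nkx2-2 measured 5.37, 4.53 and 3.59 TPM in IC libraries 1 to 3, 6.28, 2.13 and 2.32 after EV, 2.77, 2.46 and 1.36 after the 3–100 kDa proteins and 4.09, 4.71 and 1.63 after the total secretome. All 3 of its 3–100 kDa values lay below all 3 of its IC values.

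Myrf, the driver of myelin genes, measured 2.7, 1.5 and 0.962 TPM in IC libraries 1 to 3, 2.73, 1.73 and 0.842 after EV, 2.29, 0.676 and 0.779 after the 3–100 kDa proteins and 4.02, 0.957 and 0.424 after the total secretome. Only 6 of the 12 libraries reached 1 TPM. Tcf7l2, a Wnt effector used by differentiating oligodendrocytes and by some neurons, measured 4.14, 3.73 and 2.0 TPM in IC libraries 1 to 3, 5.4, 4.28 and 3.58 after EV, 3.36, 5.94 and 3.46 after the 3–100 kDa proteins and 4.98, 4.77 and 3.17 after the total secretome. Its groups overlapped.

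Committed precursors were marked by Gpr17 and Bcas1. Gpr17, a receptor that holds precursors before myelination, measured 27.6, 16.1 and 10.0 TPM in IC libraries 1 to 3, 22.7, 12.9 and 6.37 after EV, 10.9, 4.23 and 1.22 after the 3–100 kDa proteins and 20.7, 7.02 and 6.36 after the total secretome. It had a 22.6-fold range over the 12 libraries, and within each group library 1 was highest and library 3 lowest. Bcas1, a marker of newly formed oligodendrocytes, measured 61.2, 31.5 and 18.6 TPM in IC libraries 1 to 3, 53.2, 33.7 and 18.8 after EV, 44.5, 25.2 and 13.2 after the 3–100 kDa proteins and 68.7, 31 and 28.3 after the total secretome, in the same order of libraries as Gpr17 within every group. Bmp4, a secreted factor of early precursors, measured 3.81, 2.19 and 1.08 TPM in IC libraries 1 to 3, 5.68, 1.09 and 0.741 after EV, 2.27, 0.126 and 0.13 after the 3–100 kDa proteins and 4.94, 0 and 0.179 after the total secretome. Library 1 was again highest in every group. Enpp6, a phosphodiesterase of newly formed oligodendrocytes, was above 0 in 5 libraries, with a highest value of 1.02 TPM.

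Of the 10 myelin protein genes, Cnp, Mbp and Tspan2 were above 10 TPM in every library and 7 were low. Cnp, which encodes a myelin enzyme already made by precursors, measured 69.5, 64.1 and 43.8 TPM in IC libraries 1 to 3, 66.1, 45.6 and 42.5 after EV, 56.5, 35.4 and 36.2 after the 3–100 kDa proteins and 68.3, 47.9 and 45.4 after the total secretome. Mbp, the basic protein that compacts myelin, measured 31.8, 12.7 and 14.5 TPM in IC libraries 1 to 3, 17.6, 18.4 and 15.3 after EV, 19.5, 22.6 and 15.8 after the 3–100 kDa proteins and 37.4, 19.6 and 17.8 after the total secretome. Library 1 was the highest in IC and after the total secretome, but not after EV or the 3–100 kDa proteins. Tspan2, a tetraspanin of early oligodendrocytes, measured 29.6, 19.2 and 24.4 TPM in IC libraries 1 to 3, 18.1, 23.7 and 25.4 after EV, 22.3, 24.6 and 17.4 after the 3–100 kDa proteins and 25.4, 18.6 and 17.5 after the total secretome.

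Cldn11, the claudin of myelin tight junctions, measured 2.41, 0.367 and 0.291 TPM in IC libraries 1 to 3, 3.18, 0 and 0 after EV, 0.944, 0.239 and 0 after the 3–100 kDa proteins and 4.83, 0 and 0.169 after the total secretome. Its 3 values of 1 TPM or more were all from library 1. Mag, a myelin-associated adhesion protein, ranged from 0.106 to 2.40 TPM. Mog, a surface protein of finished myelin, ranged from 0.148 to 1.08 TPM. Ermn, a cytoskeletal protein of late oligodendrocytes, reached at most 0.630 TPM. Mal was above 0 in 3 libraries, and Mobp and Opalin were each above 0 in 1.

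For myelin lipid synthesis, Ugt8 makes galactosylceramide, Gal3st1 turns it into sulfatide and Fa2h hydroxylates the fatty acids of both. Ugt8 measured 5.16, 2.31 and 2.67 TPM in IC libraries 1 to 3, 3.08, 2.82 and 3.15 after EV, 3.95, 3.55 and 2.83 after the 3–100 kDa proteins and 4.72, 3.94 and 3.68 after the total secretome. Gal3st1 measured 1.05, 1.98 and 1.85 TPM in IC libraries 1 to 3, 1.6, 0.399 and 1.14 after EV, 1.19, 0.829 and 1.72 after the 3–100 kDa proteins and 1.64, 0.721 and 2.75 after the total secretome. Fa2h measured 1.09, 1.5 and 1.05 TPM in IC libraries 1 to 3, 1.39, 0.248 and 0.609 after EV, 0.875, 0.688 and 0.803 after the 3–100 kDa proteins and 0.819, 0.477 and 0.487 after the total secretome. The IC values of Fa2h lay above all values after the 3–100 kDa proteins and after the total secretome, with no value above 1.5 TPM.

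Of the genes shared with other cells, Enpp2 encodes autotaxin. Enpp2 measured 15.5, 5.52 and 8.64 TPM in IC libraries 1 to 3, 7.02, 7.46 and 6.68 after EV, 4.84, 6.48 and 3.53 after the 3–100 kDa proteins and 10.5, 5.16 and 6.49 after the total secretome. Sirt2, a deacetylase abundant in myelin and also made by neurons, measured 89.5, 86.9 and 53.3 TPM in IC libraries 1 to 3, 97.4, 75.4 and 61.2 after EV, 86.3, 72.9 and 61.6 after the 3–100 kDa proteins and 100.0, 84.6 and 72.2 after the total secretome. Library 1 was its highest in all groups. Nfasc, which encodes neurofascins of axons and of the glial loops beside the node, measured 35.2, 25.1 and 32.8 TPM in IC libraries 1 to 3, 25.2, 35 and 32.7 after EV, 25.2, 26 and 25.3 after the 3–100 kDa proteins and 31.6, 24.2 and 25.6 after the total secretome. It had the narrowest range of the lineage genes, 1.45-fold.

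Library number 1 was the highest of its group in all 4 groups for 7 of the 23 genes that reached 1 TPM in 3 or more libraries and under more than 1 number. These were Bcas1, Bmp4, Cnp, Gpr17, Myrf, Sirt2 and Sox10. The same was true of 6.62% of 13229 genes. Cldn11 was not counted, as it reached 1 TPM in number 1 libraries alone. Library number 2 was highest throughout for 0 of the 23 (4.82% of all genes) and library number 3 for 0 of the 23 (1.13%). The labels do not say what a library number marks, and no test was made of this pattern.

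**Figure D2:**
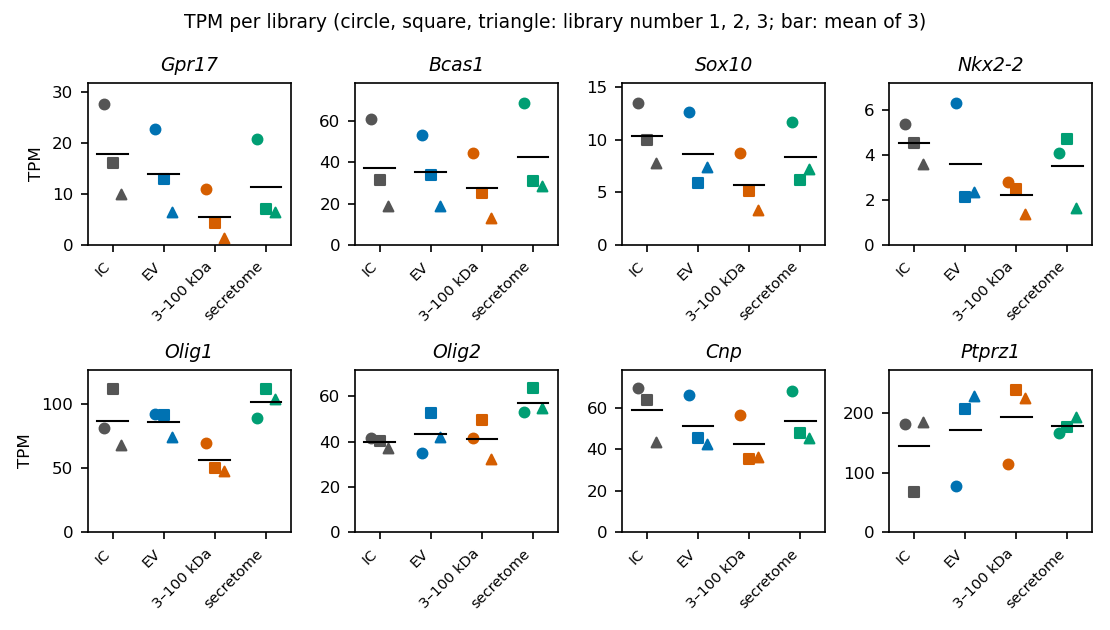
TPM of 8 lineage genes in the 12 libraries, with a circle, square and triangle for library numbers 1, 2 and 3 and a bar for the mean of 3. The circle is on top in every group for Gpr17, Bcas1, Sox10 and Cnp, while for Ptprz1 the square is lowest in IC and the circle after each addition.

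Within groups the genes varied in blocks. Deviations of log2 values from the group means were correlated over the 12 libraries, as a description of libraries that share a total. Gpr17 and Bcas1 varied together most closely (r = 0.98), and Sox10 followed Gpr17 (r = 0.90) as Cnp followed Bcas1 (r = 0.90) and Sirt2 followed Cnp (r = 0.91). The matrix and surface genes formed another block, with r = 0.92 for Tnr and Ptprz1, 0.92 for Vcan and Ptprz1 and 0.93 for Nfasc and Tnr. Mbp went with Enpp2 (r = 0.93) and Ugt8 (r = 0.87), and Pdgfra with Olig2 (r = 0.86). Against the genes that went with Gpr17, Vcan ran opposite (r = -0.85 with Cnp and -0.76 with Sox10) and Ptprz1 less so (r = -0.70 with Cnp and -0.47 with Bcas1), while Nfasc was near 0 (r = 0.09 with Bcas1 and -0.14 with Cnp).

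**Figure D3:**
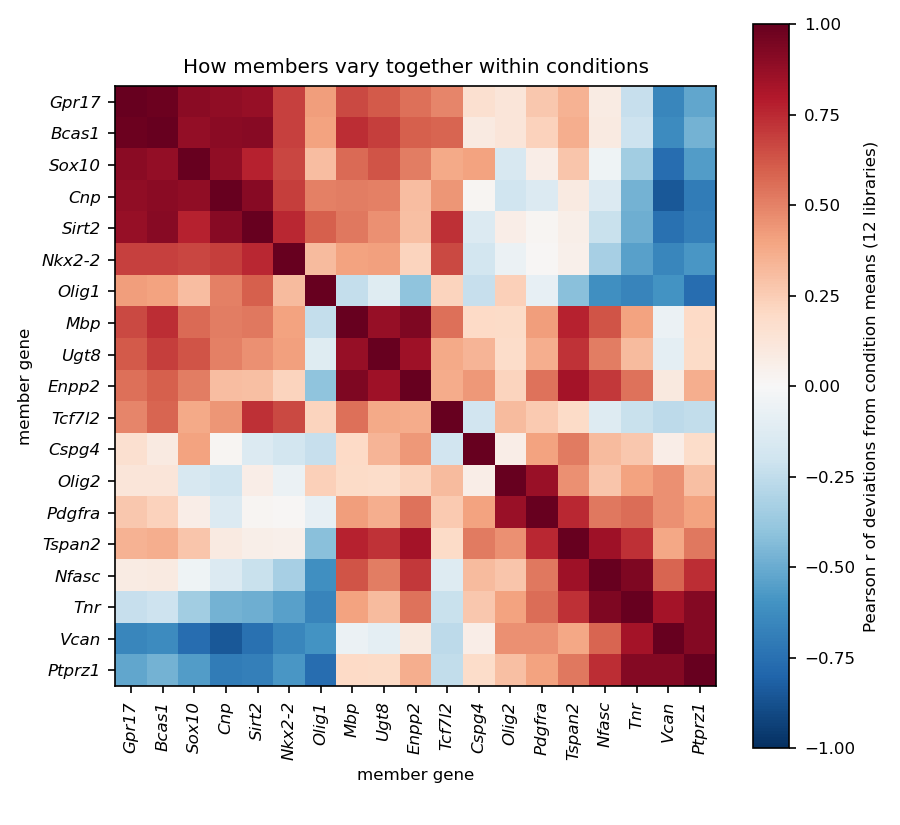
Pearson r between 19 lineage genes of their deviations from group means over 12 libraries, from -1 (blue) to 1 (red), with the genes ordered by block. Gpr17, Bcas1, Sox10, Cnp and Sirt2 form a red block, and Vcan and Ptprz1 are blue against it.

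The comparison of EV with IC asks whether the vesicles move gene expression in intact cultures within hours. None of the 23 lineage genes tested passed the FDR, and 0 had an unadjusted p under 0.05 in limma. Across all genes tested the corresponding shares were 0.141% and 2.82%. Overlap between groups was counted over genes with 1 TPM or more in a library of both groups, since a gene that enters the tests through 1 group alone has its direction fixed by that. The genes whose EV and IC libraries did not overlap were 0 of 23, against 4.73% of all genes. The median fold change of the 23 was -0.07, against -0.01 for all genes, and single values ran from -0.39 to 0.36.

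For the lineage factors, the EV minus IC difference on the log2 scale was 0.00 for Olig1 (95% interval -0.46 to 0.47), 0.09 for Olig2 (-0.29 to 0.47) and -0.28 for Sox10 (-1.01 to 0.44). For Nkx2-2 it was -0.37 (-1.22 to 0.48), for Myrf 0.02 (-0.80 to 0.83) and for Tcf7l2 0.36 (-0.26 to 0.98). Gpr17 gave -0.39 (-1.5 to 0.72). Over the 23 genes the interval reached a median of 0.72 to either side. For a typical gene of the list, an observed difference smaller than that could not reach an unadjusted p under 0.05. True changes of that size or larger could also have been missed. With IC library 2 and EV library 1 both left out, 2 genes reached an unadjusted p under 0.05, Enpp2 at -0.67 and Nkx2-2 at -0.77, with adjusted p of 0.732 and 0.671 in limma. Of all genes 6.32% reached that limit in the same fit. Without IC library 2 alone the count was 1 (3.14% of all genes) and without EV library 1 alone it was 1 (4.82%).

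**Figure D4:**
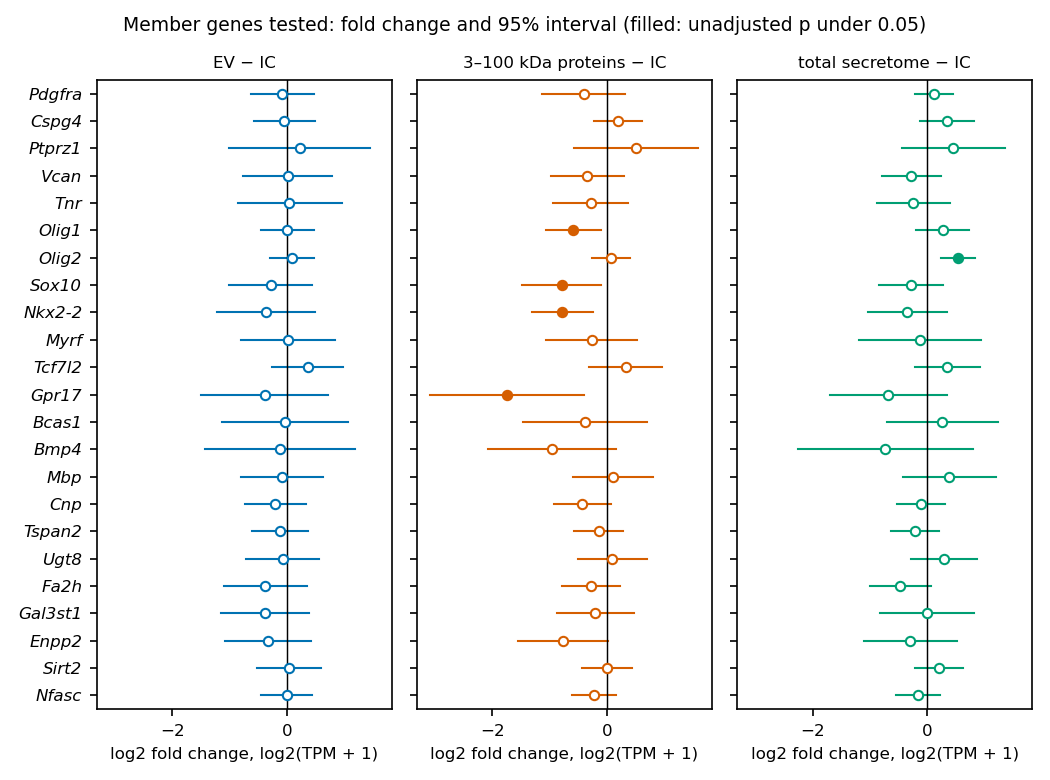
Log2 fold change on the log2(TPM + 1) scale with its 95% interval for the 23 lineage genes tested against IC, for EV, the 3–100 kDa proteins and the total secretome. Filled points have an unadjusted p under 0.05, which are 0 genes after EV, 4 genes on the lower side after the 3–100 kDa proteins, and Olig2 on the higher side after the total secretome.

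After the 3–100 kDa proteins the mean levels of Gpr17, Sox10, Nkx2-2 and Olig1 were below those of IC. None of the 23 genes tested passed the FDR in the fit without the library number. With the library number as a block Gpr17 passed it, as given below. Gpr17 averaged 5.44 ± 4.94 TPM against 17.9 ± 8.91 in IC, and Sox10 5.72 ± 2.78 against 10.4 ± 2.87 (SD, n = 3). Nkx2-2 averaged 2.20 ± 0.743 against 4.50 ± 0.892, and Olig1 56.0 ± 12.2 against 87.1 ± 22.6 (SD, n = 3). Olig2 was at 41.1 ± 8.62 against 39.7 ± 2.40 TPM (SD, n = 3).

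The log2 difference from IC was -1.75 for Gpr17 (SE 0.57, adjusted p = 0.17 in limma), -0.78 for Nkx2-2 (SE 0.23, adjusted p = 0.132), -0.59 for Olig1 (SE 0.21, adjusted p = 0.199) and -0.79 for Sox10 (SE 0.30, adjusted p = 0.226). These 4, all lower, were the genes with an unadjusted p under 0.05, and that limit was passed by 17.0% of all genes tested. At the FDR, 3.31% of all genes were called and 0 of the 23. Libraries did not overlap for 1 of 22, Nkx2-2, lower, against 19.7% of all genes. The median of the 23 was -0.28 against -0.02 for all genes, with 17 of 23 below 0 against 52.6% of all genes. The other factors were at 0.06 for Olig2 (95% interval -0.27 to 0.39), -0.27 for Myrf (-1.07 to 0.52) and 0.32 for Tcf7l2 (-0.31 to 0.95), and Fa2h, which entered the tests through IC alone, was at -0.28 (-0.79 to 0.22). The count of 4 fell to 2 without IC library 1 (12.3% of all genes), leaving Nkx2-2 and Olig1, and to 2 without 3–100 kDa library 3 (10.8%), leaving Gpr17 and Nkx2-2. In bulk RNA, fewer cells of the lineage and less RNA per cell cannot be told apart.

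A fit with the library number as a block changed the call of Gpr17 after the 3–100 kDa proteins. Gpr17 was lower than in the same-numbered IC library each time, at 10.9 against 27.6, 4.23 against 16.1 and 1.22 against 10.0 TPM. With the block its log2 difference of -1.75 had an SE of 0.27 and passed the FDR (adjusted p = 0.0461 in limma), as 1 of 23 lineage genes, against 1.51% of all genes. At an unadjusted p under 0.05 were 5 of 23, all lower, against 13.9% of all genes, which were the 4 genes above and Bmp4 at -0.96 (SE 0.28, adjusted p = 0.226). With the block in a fit of all 12 libraries, Gpr17 (adjusted p = 0.0017) and Sox10 (adjusted p = 0.0279) passed the FDR, against 10.1% of all genes. Over all genes the same-numbered libraries of these groups deviated from their group means with correlations of -0.01, -0.25 and 0.25, so the fit without the block is kept as the main one here. Gpr17 itself fell from library 1 to library 3 in both groups. Without the block this spread entered its SE, which was 0.57 against 0.27 with the block.

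After the total secretome Olig2 was higher in all 3 libraries than in any IC library, at 57.1 ± 5.56 against 39.7 ± 2.40 TPM (SD, n = 3). The log2 difference was 0.53 (SE 0.13, adjusted p = 0.0958 in limma), outside the FDR, as for the other 22 genes tested (0 of 23, against 1.97% of all genes). Olig2 was the 1 gene with an unadjusted p under 0.05, a limit that 16.2% of all genes passed. Libraries did not overlap for 1 of 22, Olig2, against 19.6% of all genes. Fa2h, which again entered through IC alone, was at -0.47 (95% interval -1.0 to 0.07). Olig1 was at 0.27 (-0.20 to 0.73), Sox10 at -0.28 (-0.84 to 0.28), Nkx2-2 at -0.35 (-1.04 to 0.34), Myrf at -0.12 (-1.19 to 0.94) and Tcf7l2 at 0.34 (-0.22 to 0.91). The median of the 23 was -0.11 against -0.01 for all genes.

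In the deviations of all genes, the same-numbered libraries of the total secretome and IC went together, so the fit with the library number as a block is given beside these results. With the block, 3 of 23 genes had an unadjusted p under 0.05, against 18.7% of all genes, and 0 passed the FDR. They were Olig2, Mbp at 0.38 (SE 0.15, adjusted p = 0.235) and Gpr17 at -0.68 (SE 0.18, adjusted p = 0.130). With the block in a fit of all 12 libraries, Olig2 passed the FDR (adjusted p = 0.0316), against 6.82% of all genes. In the fit without the block, the count at an unadjusted p under 0.05 was 6 without IC library 2 (27.8% of all genes), 3 without total secretome library 1 (14.0%) and 2 without IC library 1 (12%).

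The comparisons among the additions ask how the vesicles, the protein fraction and the total secretome differ in effect. Total secretome minus 3–100 kDa proteins was 0.86 for Olig1 (SE 0.17, adjusted p = 0.859 in limma) and 0.48 for Olig2 (SE 0.14, adjusted p = 1.0), with all 3 total secretome libraries above all 3–100 kDa libraries for both. These were the 2 of 20 without overlap, against 4.75% of all genes. They were also the 2 of 20 genes with an unadjusted p under 0.05, against 2.64% of all genes, and 0 passed the FDR, against 0.0157% of all genes. Of the 20 genes, 18 were above 0 and 2 below, while 49.8% of all genes were below 0. Their median was 0.25 against 0.00 for all genes. These genes vary in blocks and share the same libraries, so they are not separate observations.

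With the library number as a block, 7 of 20 had an unadjusted p under 0.05, all higher after the total secretome (5.24% of all genes). Besides Olig1 and Olig2 these were Bcas1 at 0.65 (SE 0.15), Gpr17 at 1.08 (SE 0.24), Cnp at 0.34 (SE 0.10), Sirt2 at 0.22 (SE 0.08) and Sox10 at 0.52 (SE 0.18). Adjusted p of the 7 ran from 0.507 to 0.876 in limma, and 0 passed the FDR. Leaving out 3–100 kDa library 1 raised the count without the block from 2 to 8, and the share of all genes from 2.64% to 10.1%.

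EV minus 3–100 kDa proteins was 0.60 for Olig1 (SE 0.16, adjusted p = 0.271 in limma), the 1 of 22 genes with an unadjusted p under 0.05, against 9.34% of all genes. At the FDR the count was 0 of 22, against 0.534% of all genes. Libraries did not overlap for 2 of 22, Olig1 and Enpp2, both higher after EV, against 13.8% of all genes. Gpr17 was at 1.37 (SE 0.64, adjusted p = 0.594) and Sox10 at 0.52 (SE 0.37, adjusted p = 0.782). Each numbered EV library was above the same-numbered 3–100 kDa library for Gpr17, at 22.7 against 10.9, 12.9 against 4.23 and 6.37 against 1.22 TPM. With the library number as a block, Gpr17 and Olig1 passed the FDR, both higher after EV, at 1.37 (SE 0.17, adjusted p = 0.0200) and 0.60 (SE 0.10, adjusted p = 0.0412). With the block in a fit of all 12 libraries Gpr17 passed (adjusted p = 0.0178) and Olig1 did not (adjusted p = 0.177), where 2.45% of all genes passed.

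In the blocked fit of the EV and 3–100 kDa libraries alone, 2.67% of all genes passed the FDR. At an unadjusted p under 0.05 were 9 of 22 lineage genes, against 21.1% of all genes. Bcas1, Bmp4, Cnp, Enpp2, Gpr17, Olig1, Sox10 and Vcan were higher after EV and Ptprz1 lower. The same-numbered libraries correlated at 0.59, 0.29 and 0.30 over all genes, and that the number pairs cultures rests on these correlations and not on a label. Without the block, the count at an unadjusted p under 0.05 was 4 without EV library 1 (14.1% of all genes) and 2 without EV library 3 (8.37%) or without 3–100 kDa library 1 (8.90%) or 2 (5.27%).

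EV minus total secretome was -0.42 for Olig2 (SE 0.16, adjusted p = 0.589 in limma), with EV libraries at 34.8, 52.8 and 42.1 TPM and total secretome libraries at 53, 63.5 and 54.9 TPM. Olig2 was the 1 of 22 genes with an unadjusted p under 0.05, against 7.70% of all genes, and 0 passed the FDR, against 0.188% of all genes. Libraries did not overlap for 2 of 22, Olig2 and Ugt8, both lower after EV, against 11.4% of all genes. With the block 3 of 22 had an unadjusted p under 0.05, against 10.0% of all genes, which were Olig2, Mbp at -0.46 (SE 0.19) and Bmp4 at 0.62 (SE 0.25), with adjusted p of 0.358 to 0.496 in limma. Without the block, the count was 4 without EV library 1 (22% of all genes) and 2 without total secretome library 1 (6.43%). It was 0 without total secretome library 2 (3.76%) or 3 (4.55%) or without EV library 3 (6.64%). The 3 comparisons with IC share its libraries, as the comparisons between additions share theirs, so their values are not independent.

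Other genes of the lineage were read from 4 lists of related factors, progenitor genes, myelin and node genes, and signals, 89 names in all. After EV 0 of the 71 tested passed the FDR in limma, and at an unadjusted p under 0.05 were 4 higher and 3 lower, against 2.82% of all genes in either direction. After the 3–100 kDa proteins 7 of 72 passed the FDR on the higher side and 1 on the lower side, against 3.31% of all genes in either direction. These were 0 of 10 related factors, 0 of 12 progenitor genes, 3 of 20 myelin and node genes and 5 of 30 signals, with median fold changes of -0.36, -0.14, -0.11 and 0.21. At an unadjusted p under 0.05 were 14 higher and 10 lower, against 17.0% of all genes in either direction. After the total secretome 5 of 72 passed the FDR, all higher, against 1.97% of all genes in either direction, which were 1 of 20 myelin and node genes and 4 of 29 signals. At an unadjusted p under 0.05 were 15 higher and 4 lower, against 16.2% of all genes.

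Of the signals, those that rose are growth factors, a receptor and a cell cycle gene that neurons and astrocytes use as well. Fgf2, a growth factor that keeps progenitors dividing, measured 0, 0.187 and 1.11 TPM in IC, 1.91, 3.42 and 6.88 after EV, 6.37, 10.2 and 10.8 after the 3–100 kDa proteins and 6.28, 8.47 and 5.69 after the total secretome. It rose by 2.86 (SE 0.36, adjusted p = 0.00765 in limma) after the 3–100 kDa proteins and by 2.50 (SE 0.33, adjusted p = 0.0125) after the total secretome. Its receptor gene Fgfr1 averaged 33.9 TPM in IC and rose to 107 TPM after the 3–100 kDa proteins (1.65, SE 0.17, adjusted p = 0.00358) and to 94.0 TPM after the total secretome (1.45, SE 0.16, adjusted p = 0.00756).

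Bdnf, a neurotrophin, rose from 1.69 to 9.08 TPM (1.97, SE 0.24, adjusted p = 0.00653) and to 8.68 TPM (1.89, SE 0.24, adjusted p = 0.0115). Ccnd1, which encodes cyclin D1, rose from 30.3 to 184 TPM (2.62, SE 0.21, adjusted p = 0.00143) and to 131 TPM (2.10, SE 0.27, adjusted p = 0.0117). After EV, Ccnd1 averaged 71.4 TPM, a difference of 1.22 (SE 0.23) that did not pass the FDR (adjusted p = 0.197). Ccnd1 and Fgfr1 were lower after EV than after the 3–100 kDa proteins, by -1.39 (adjusted p = 0.0243) and -1.37 (adjusted p = 0.0377).

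The Notch ligand gene Dll1 was the 1 listed gene that fell, from 11.7, 13.6 and 11.8 TPM in IC to 5.06, 5.45 and 4.34 after the 3–100 kDa proteins (-1.14, SE 0.17, adjusted p = 0.0136). After the total secretome it measured 6.35, 7.75 and 5.43 TPM (-0.82, adjusted p = 0.0664). Hes5, a Notch target, had the lowest p of the related factors after EV, at -0.89 (SE 0.26, adjusted p = 0.954), and after the total secretome, at -1.13 (SE 0.28, adjusted p = 0.104).

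Among the myelin and node genes, Pmp22, a membrane protein of peripheral myelin also made in other cells, rose by 0.96 (SE 0.15, adjusted p = 0.0204) after the 3–100 kDa proteins and by 1.05 (SE 0.14, adjusted p = 0.0116) after the total secretome. Its EV libraries, at 39.5, 39.9 and 41.5 TPM, all lay above the IC libraries, at 24.5, 23.6 and 24.4 TPM, with a difference of 0.70 (SE 0.14, adjusted p = 0.246). The tetraspanin gene Cd9 rose by 1.18 (SE 0.20, adjusted p = 0.0245) and the lysophosphatidic acid receptor gene Lpar1 by 1.16 (SE 0.22, adjusted p = 0.0375) after the 3–100 kDa proteins. No related progenitor gene passed the FDR in a comparison with IC, where the lowest p were those of Megf11 after EV (0.23, adjusted p = 1.0), Xylt1 after the 3–100 kDa proteins (0.88, adjusted p = 0.188) and C1ql1 after the total secretome (0.43, adjusted p = 0.213).

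**Figure D5:**
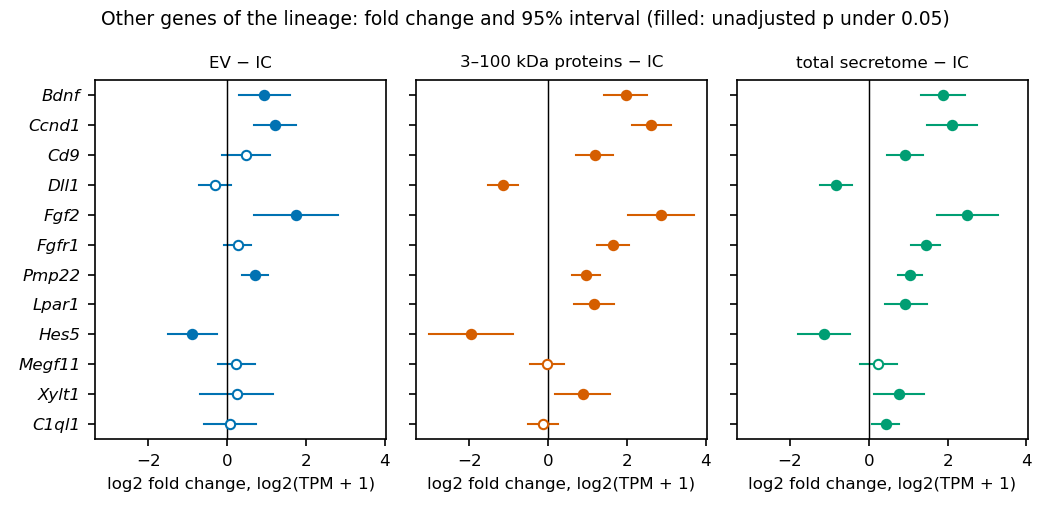
Log2 fold change against IC on the log2(TPM + 1) scale with its 95% interval for 12 related genes, filled where the unadjusted p is under 0.05. Fgf2, Ccnd1, Bdnf and Fgfr1 lie to the right after the 3–100 kDa proteins and the total secretome, and Dll1 and Hes5 to the left after the 3–100 kDa proteins.

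Markers of other cell types were read beside these values. The 10 neuron markers summed to 3872 to 4023 TPM in IC, 3689 to 4052 after EV, 3251 to 3797 after the 3–100 kDa proteins and 3143 to 3934 after the total secretome, and 0 of 10 passed the FDR in any comparison. The 8 astrocyte markers summed to 1326 to 1659, 1600 to 2005, 1456 to 1897 and 1767 to 2070 TPM in the same order, with 0 of 8 passing the FDR. At an unadjusted p under 0.05 no neuron marker and 1 astrocyte marker, Gfap, differed from IC, at 1.58 (SE 0.51, adjusted p = 1.0) after EV and 1.40 (SE 0.55, adjusted p = 0.269) after the total secretome. Microglia and endothelial markers were at or near 0, summing to at most 2.20 and 0.595 TPM in any library, with Ptprc at 0 in all 12. The 5 pericyte and fibroblast markers summed to 3.15 to 4.28 TPM in IC, 1.69 to 2.70 after EV, 1.90 to 2.53 after the 3–100 kDa proteins and 2.24 to 2.61 after the total secretome. Pdgfrb fell after the 3–100 kDa proteins (-1.42, SE 0.24, adjusted p = 0.0234 in limma) and was at -0.90 after EV (SE 0.24, adjusted p = 0.743) and -0.92 after the total secretome (SE 0.22, adjusted p = 0.0912). Col1a1, the other marker of that list that could be tested after the 3–100 kDa proteins, went from a mean of 0.219 to 1.58 TPM (1.1, SE 0.24, adjusted p = 0.0567). In that comparison Pdgfrb reached 1 TPM in IC alone and Col1a1 in the treated libraries alone, so the direction of each was fixed by the way it entered the tests. The Schwann cell list summed to 0.593 to 0.866 TPM in IC, 1.03 to 2.64 after EV, 14.9 to 29.7 after the 3–100 kDa proteins and 10.6 to 17.7 after the total secretome. After the last 2 additions most of the sum was Egr2, also an immediate early gene of neurons. Egr2 measured 0.332, 0.269 and 0.48 TPM in IC. It entered these tests through the treated libraries alone, so its direction was fixed in the same way. Its difference from IC was 4.14 (SE 0.31, adjusted p = 0.00129) after the 3–100 kDa proteins and 3.45 (SE 0.28, adjusted p = 0.00312) after the total secretome. Ncmap, a myelin gene of that list, was listed at 0 in all 12 libraries. The part of shifts in cell types in the values of the lineage genes was not tested.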

How the data were processed

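The mRNA of rat primary cortical neuroglial cultures was sequenced in 12 libraries, 3 for each of IC, EV, the 3–100 kDa proteins and the total secretome, grouped by the treatment in the labels. Per the study's methods, read quality was checked (FastQC) and adapters and poor bases were removed (Trimmomatic, Cutadapt). The authors then ran Salmon on Ensembl transcripts of Rnor_6.0, using the genome as a decoy, and obtained gene values through tximport. The labels and the study's methods name different library kits and instruments. The unit is not named in the deposited tables. It was taken as the TPM of the authors, since every library adds up to 1000000 and the numbers are fractional. TPM keeps no read depth, so the precision that depth gives is unknown.

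Rows that share a name were added together. For each comparison, libraries were put on one scale with median-of-ratios factors, which over all 12 libraries lay between 0.909 and 1.08. Genes that reached 1 TPM in 3 or more libraries of the comparison were tested as log2(TPM + 1) with limma 3.58.1 in R 4.3.3 (mean-variance trend, two-sided, Benjamini-Hochberg adjustment, FDR 0.05), in a fit of the 6 libraries compared. The scripts were tested on simulated data. Levels are given as the mean and SD of the TPM as deposited. Because the values are not counts, the likelihood ratio test of the study's methods was not used.

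The genes and lists were chosen with earlier results of these data known. By rule, values per library are given for genes that reached 1 TPM in 3 or more of the 12 libraries, and fold changes for the lineage factors and for genes with an unadjusted p under 0.05 or without overlap against IC. Related genes are named where they passed the FDR or had the lowest p of their list. Some results are not reported here.

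The labels number the libraries of each group 1 to 3 without saying what a number marks, and days are not given per library. Over all genes, same-numbered libraries were therefore compared by correlating how far each lay from its group mean. EV with IC gave -0.08, -0.18 and 0.54, and the 3–100 kDa proteins with IC gave -0.01, -0.25 and 0.25, so the numbers were not read as pairs there. The total secretome gave 0.25, 0.16 and 0.16 with IC and 0.38, 0.21 and 0.24 with the 3–100 kDa proteins. EV gave 0.59, 0.29 and 0.30 with the 3–100 kDa proteins and 0.26, 0.19 and 0.21 with the total secretome. In these 4 comparisons the numbers were read as pairs, from the data alone. This reading is not uniform, since numbers that pair the total secretome with every other group would pair those groups too. The fit without the block was the main one in every comparison, and for these 4 the blocked fit is given beside it. Alternatives were other pseudocounts (0.1 and 0.5), no filter, a filter at 5 TPM, the deposited scale, a fit of all 12 libraries, the replicate block and leaving out each library.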

Additional observations from a re-analysis of the deposited data

How the results depend on the processing

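In the main fits, without the replicate block, the counts of lineage genes past the FDR were 0 in all 6 comparisons. They stayed at 0 under other pseudocounts, filters, the deposited TPM scale, a fit of all 12 libraries and each omission of 1 library. With the replicate block the count was 1 for the 3–100 kDa proteins against IC (Gpr17, adjusted p = 0.0461), where the numbers were not read as pairs, and 2 for EV against the 3–100 kDa proteins. Of all genes 1.51% and 2.67% passed in these fits. With the block in a fit of all 12 libraries, an alternative chosen after seeing the data, the count was 2 for the 3–100 kDa proteins against IC (Gpr17, adjusted p = 0.00170, and Sox10, adjusted p = 0.0279), 1 for the total secretome against IC (Olig2, adjusted p = 0.0316) and 1 for EV against the 3–100 kDa proteins (Gpr17, adjusted p = 0.0178). The shares of all genes in these comparisons were 10.1%, 6.82% and 2.45%. The replicate block changed no other FDR call of the lineage genes.

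At an unadjusted p under 0.05 the counts without 1 library ran from 0 to 1 for EV against IC, 2 to 6 for the 3–100 kDa proteins against IC, 1 to 6 for the total secretome against IC, 1 to 4 for EV against the 3–100 kDa proteins, 0 to 4 for EV against the total secretome and 2 to 8 for the total secretome against the 3–100 kDa proteins. With no filter the counts were 1 for EV (3.19% of all genes) and 3 for the total secretome (13.8%) against IC. On the deposited scale the count was 0 for EV against the total secretome (6.43% of all genes). The fit of all 12 libraries gave 2 for EV against the 3–100 kDa proteins (11.9% of all genes). The replicate block gave 3 for the total secretome against IC (18.7% of all genes) and 9 for EV against the 3–100 kDa proteins (21.1%). It gave 3 for EV against the total secretome (10.0%) and 7 for the total secretome against the 3–100 kDa proteins (5.24%). With the block in the fit of all 12, the counts against IC were 8 for the 3–100 kDa proteins (24.2% of all genes) and 3 for the total secretome (21.1%). Against the 3–100 kDa proteins they were 5 for EV (15.1%) and 6 for the total secretome (3.45%). With IC library 2 and EV library 1 both left out, also chosen after seeing the data, the count for EV against IC was 2 (6.32% of all genes). The cause of these shifts was not tested.

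Of 2566 recomputed fold changes of named genes 107 had another sign, and 0 of them at an unadjusted p under 0.05 in either fit. Of 124 mean levels 0 moved by more than 1 SD on rescaling. Over all genes the FDR count was 423 for the 3–100 kDa proteins against IC and 83 to 1292 under the alternatives, 252 for the total secretome (31 to 872) and 18 for EV (0 to 75), and between the additions 68 (2 to 340), 24 (0 to 117) and 2 (0 to 5).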
